A study of Oryza sativa Japonica Group with 49 samples.

Results

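In rice, 200 genes were read at several times their normal level in heated panicles and stayed within 1.5 times their normal level in heated seedlings. They were chosen by their levels in CPM (the deposited count of a gene per 1000000 counts of its library) in 10 libraries of the japonica variety Zhonghua 11 (ZH11). The lower of the 2 heated panicle libraries had to be at least 4 times the higher of the 2 normal panicle libraries and at least 2 CPM. The mean of the heated seedlings could be at most 1.5 times the mean of the normal seedlings, with 0.5 CPM added to each mean. Of 55986 gene models, 788 met the panicle conditions (1.41%), 316 of these also met the seedling limit, and the 200 with the largest panicle log2 ratio of means (0.5 CPM added) were kept. The values of these 10 libraries are therefore given as a description, without a test.

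The study compared ZH11 panicles under heat and normal conditions (2 libraries each), and ZH11 seedlings under heat, drought and normal conditions (3 libraries each). It also had seedlings of a second japonica variety, Dongjin (DJ), under drought and normal conditions, and seedlings of onac023 and DJ-WT, each under heat and drought (3 libraries per group). The onac023 line is a single T-DNA insertion mutant of ONAC023, a NAC transcription factor, in the DJ background, DJ-WT is the negative control derived from it, and neither line has libraries without stress. The labels give 45 °C for 6 h as the heat treatment and 7 d of drought. For seedlings, the paper's methods give a longer heat treatment and a shorter drought than these labels. The study's own sample list gives a much shorter heat exposure for panicles than for seedlings, so tissue, stage and length of exposure cannot be told apart when panicles are set against seedlings. Nothing in the labels says that panicle replicates came from separate plants, and seedling libraries are pools of seedlings, so the p-values measure the spread between libraries.

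Heat makes plant cells unfold proteins and leak membranes, and heat shock factors answer it by inducing chaperones, the heat shock proteins that hold and refold other proteins. The flowering panicle is the rice organ in which heat costs the most grain, because pollen development, anther opening and fertilization fail there. Late embryogenesis abundant (LEA) proteins protect cells that lose water, in drying seeds and pollen as well as in stressed leaves.

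Total counts ranged from 39789339 to 132110274 per library. Both heat markers and floral markers followed the labels: HSP101, the chaperone that dissolves protein aggregates, was at 5107 and 9596 CPM in heated panicles against 9.42 and 9.49 CPM in normal panicles, and at 2361 to 14830 CPM in heated ZH11 seedlings against 1.29 to 1.38 CPM in normal ones. OsMADS2, a floral organ factor, was at 167 and 171 CPM in heated panicles against 228 and 229.8 CPM in normal panicles, and below 2 CPM in every seedling library. ONAC023 had 0 to 2 counts in heated and 4 to 9 in drought-treated onac023 seedlings, against 105 to 180 in heated and 65 to 257 in drought-treated DJ-WT seedlings. The line libraries did not read as pure DJ. Of 36 genes read in all ZH11 seedlings (at least 1 CPM) and in no DJ seedlings (at most 0.1 CPM), 17 to 23 were at 0.5 CPM or more in the onac023 libraries and 34 to 36 in the DJ-WT libraries. Their summed level was 119.5 to 480.3 CPM in onac023 and 326 to 540.3 CPM in DJ-WT, against 684 to 1006 CPM in ZH11 seedlings and at most 0.238 CPM in DJ seedlings. No member belongs to these genes, and the comparison of the lines under drought is given also with drought libraries of DJ seedlings in place of DJ-WT. Comparisons of heat with drought that use the DJ-WT drought libraries have no such alternative.

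The members fell into a large block that was nearly silent in seedlings and a small block that was not. A total of 152 of the 200 stayed below 1 CPM in each of the 27 seedling libraries, whatever the variety, line or stress. The other 48 reached 1 CPM or more in at least 1 seedling library. The dividing level was set after the values were seen. Of the 200, 39 had no count in any seedling library, where a floor of 3 counts corresponds to 0.0256 to 0.0754 CPM per library. For 169 members the mean was under 0.5 CPM in heated and in normal ZH11 seedlings alike, so they met the seedling limit through absence from seedlings. Only 5 of the 472 genes that passed the panicle conditions but exceeded the seedling limit stayed below 1 CPM in all seedling libraries, although the limit itself favours genes absent from seedlings.

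**Figure D1:**
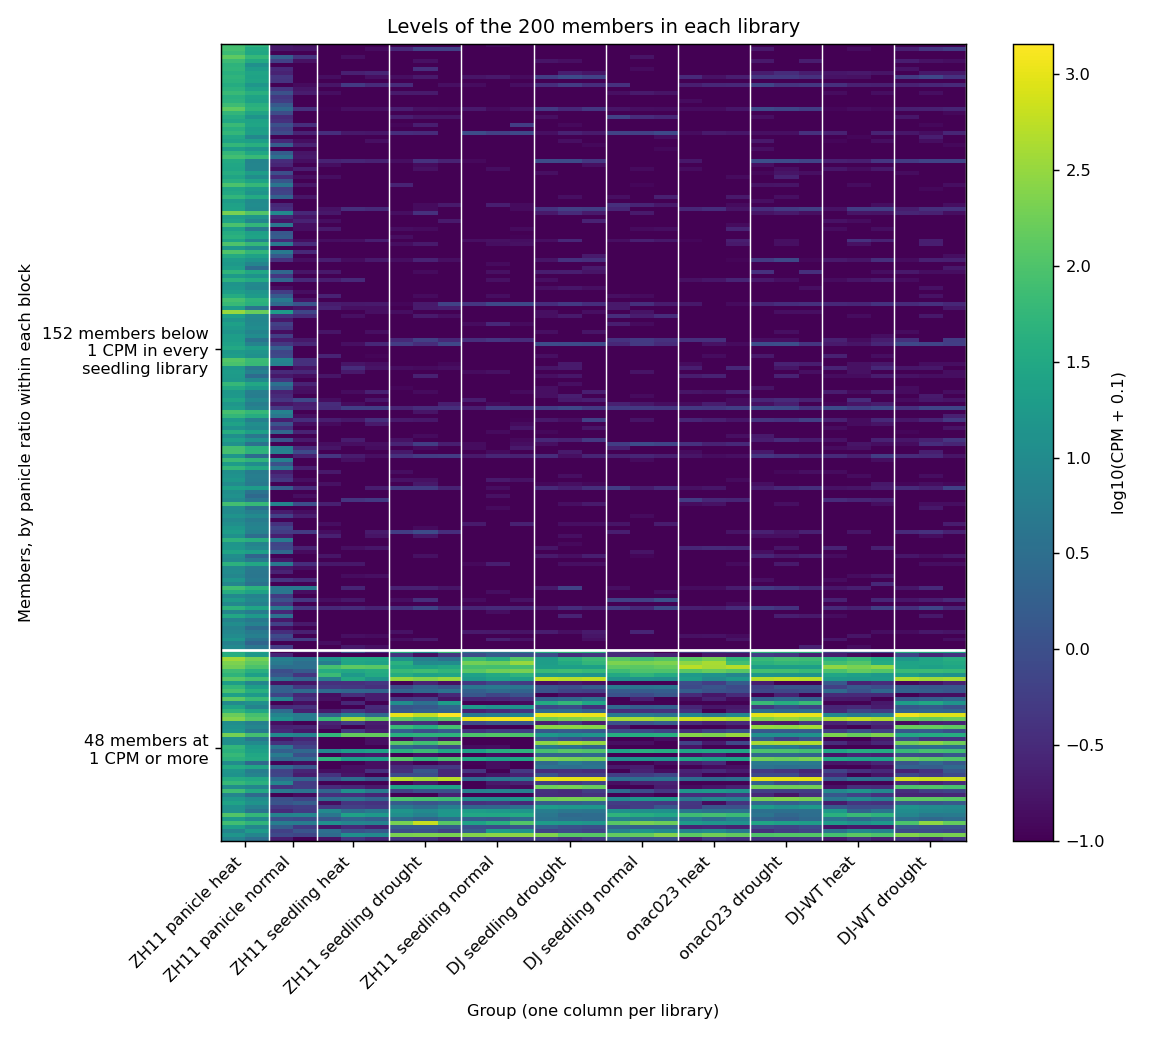
Level of each member (rows) in each library (columns, grouped by condition), as log10 of CPM with 0.1 added. The upper block holds 152 members that are bright only in the panicle columns, most of all under heat, and the lower block holds 48 members of which several are brightest under drought.

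The scatter of panicle against seedling ratios shows where the members lie among the genes that heat raised in panicles. The panicle log2 ratio of the members ran between 3.28 and 6.83, with a median of 4.28. Since the members are the genes within the seedling limit with the largest ratios, values above 6.83 can occur only past that limit. At the lower edge, LOC_Os09g30040 (3.28) and LOC_Os01g46850 (3.28) were the last members, and LOC_Os11g46230 (3.27) and the DnaJ heat shock protein gene LOC_Os06g44160 (3.26) were the first left out. At the seedling limit, LOC_Os08g13980 and LOC_Os01g50280 had ratios of 1.49 and 1.49, and LOC_Os02g53820 and LOC_Os06g46740 fell just outside with 1.51 and 1.51. LOC_Os08g13980 and LOC_Os01g50280 averaged 0.2455 and 0.2429 CPM in heated ZH11 seedlings against 0 CPM in normal ones. Their ratios thus rest on the 0.5 CPM added, and among seedlings LOC_Os08g13980 was read under heat only. The DnaJ gene LOC_Os06g44160, which met the seedling limit, had 43.0 CPM in heated seedlings against 40.9 CPM in normal seedlings.

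**Figure D2:**
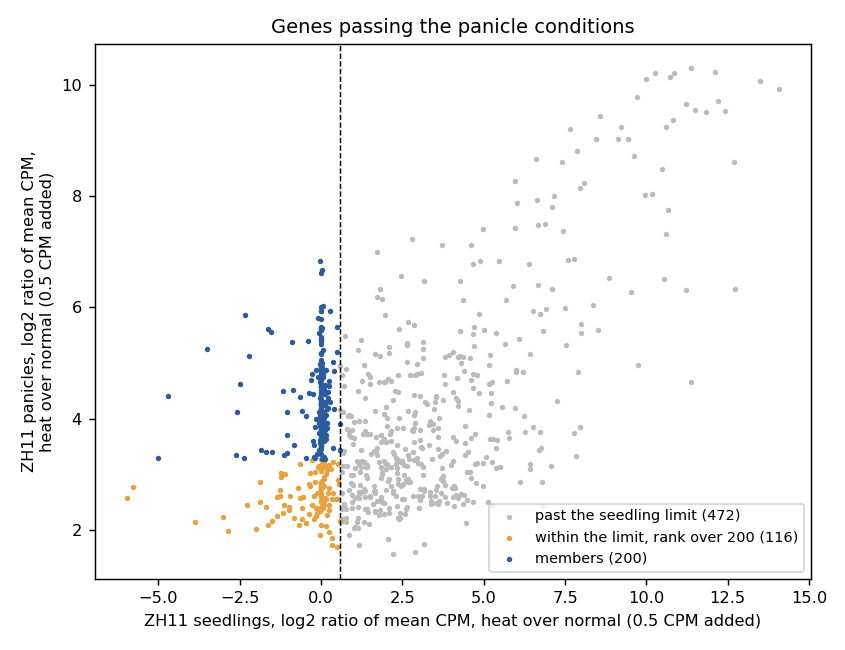
Log2 ratio of mean CPM, heat over normal, in ZH11 panicles (vertical axis) and ZH11 seedlings (horizontal axis) for the 788 genes that passed the panicle conditions, with 0.5 CPM added to each mean. The 200 members (blue) lie left of the dashed seedling limit, most of them on the line of no seedling change, and the 472 genes past the limit (grey) reach further up.

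Among the members with the largest panicle ratios, 9 of 10 belonged to the block that was silent in seedlings. LOC_Os08g12160 led with 78.3 and 50.4 CPM in heated panicles, against 0.084 and 0.0533 CPM in normal panicles, and it was read in 1 seedling library only, at 0.0339 CPM. LOC_Os11g45730 followed with 84.2 and 33.0 CPM in heated panicles, against 0.084 and 0.0746 CPM in normal ones. LOC_Os08g12230 had 67.5 and 29.6 CPM in heated panicles and no count in either normal panicle library or in any seedling library. In each of these genes the heated and normal panicle libraries lay far apart, and the heated libraries differed from each other as well.

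LOC_Os02g05670 reached 132 and 58.0 CPM in heated panicles, against 1.63 and 0.32 CPM in normal panicles. LOC_Os05g13850 had 68.3 and 32.6 CPM against 0.535 and 0.0533 CPM, and LOC_Os11g45720 had 48.3 and 12.03 CPM against no count in both normal libraries. The values of LOC_Os06g03390 were 52.6 and 19.9 CPM in heated panicles against 0.2 and 0 CPM in normal ones, and those of LOC_Os12g43700 were 42.1 and 26.7 CPM against 0.147 and 0 CPM. LOC_Os10g26600 had 50.3 and 25.0 CPM against 0.357 and 0 CPM. None of these 9 genes has a name or description in the study's tables, and none is given a role here.

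The exception was LOC_Os06g02040, with 36.9 and 23.1 CPM in heated panicles against 0 and 0.0426 CPM in normal panicles. It was read in ZH11 seedlings under drought (11.97, 37.7 and 59.7 CPM) and normal conditions (4.25, 4.36 and 5.73 CPM), and was lower there under heat (0.125, 0.303 and 1.22 CPM). The heat groups of the 2 tissues thus moved opposite ways relative to their normal groups for this gene.

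CPM was not divided by gene length, so levels are compared within a gene. The members with the highest CPM in heated panicles came from both blocks. LOC_Os07g08150, an early light-induced protein of the chloroplast, had 361 and 195 CPM in heated panicles against 6.28 and 4.59 CPM in normal panicles. Its neighbour LOC_Os07g08160, of the same family, had 219.5 and 134 CPM against 5.05 and 3.23 CPM. Early light-induced proteins bind chlorophyll in the thylakoid membrane and accumulate when light is in excess. LOC_Os10g40090 was at 323 and 154 CPM in heated panicles against 19.8 and 0.65 CPM in normal ones, and at most 0.0668 CPM in any seedling library. The aquaporin gene LOC_Os01g74450, whose family conducts water through membranes, had 230.1 and 113 CPM against 13.2 and 5.58 CPM. LOC_Os05g46530 had 198 and 105 CPM against 9.28 and 0.192 CPM. Across all members the mean in heated panicles ran between 4.37 and 278 CPM with a median of 17.9 CPM, against 0 to 10.2 CPM with a median of 0.295 CPM in normal panicles.

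The panicle replicates did not agree in the level of the members. Replicate 1 was the higher of the heated panicle libraries for 198 of the 200, and the median log2 ratio of replicate 2 over replicate 1 was -0.93. Over 18302 genes at 2 CPM or more in both heated panicle libraries, that median was 0.32. In the silent block, the summed level was 5702 and 3052 CPM in heated panicles against 207 and 17.99 CPM in normal panicles. The normal libraries thus differed 11.5-fold from each other in this block, with replicate 1 higher for 122 of its 152 genes. The lower heated library was 14.7 times the higher normal one. In the block read in seedlings, the sums were 2907 and 1566 CPM in heated panicles against 119 and 72.8 CPM in normal panicles, a 1.63-fold difference between the normal libraries.

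Floral and most green-tissue markers also differed between the 2 heated and the 2 normal panicle libraries, and their part in the members' levels was not tested. Marker values are listed from lowest to highest, not by replicate. In bulk tissue, more cells of a type and more RNA per cell cannot be told apart. The floral factor OsMADS4 was at 41.1 and 59.5 CPM in heated panicles against 86.9 and 89.3 CPM in normal panicles. OsRBCS2, a small subunit of the carbon-fixing enzyme Rubisco and a mark of green tissue, was at 440.4 and 564 CPM against 58.0 and 204 CPM. The other Rubisco genes were less far apart, OsRBCS3/5 at 1227 and 1335 CPM against 432 and 979.9 CPM, and OsRBCS4 at 582 and 621 CPM against 344 and 624 CPM. For OsRBCS4 the heated and normal panicle libraries overlapped. Left out in turn, heated replicate 2 raised the number of genes that pass the rule before the limit of 200 to 522 and normal replicate 1 raised it to 408, against 316 with all libraries.

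**Figure D3:**
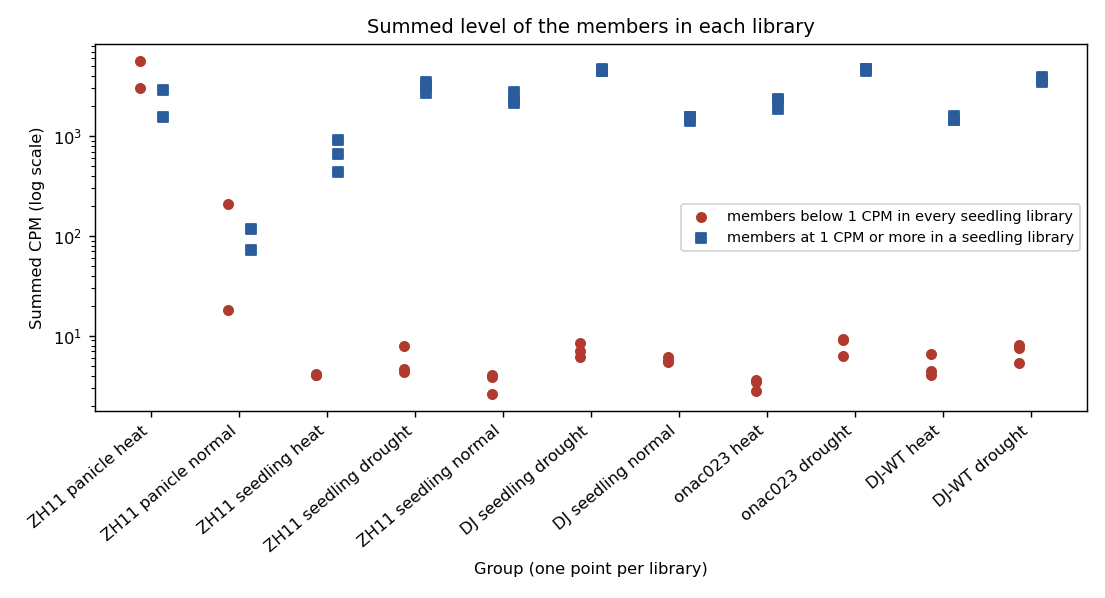
Summed CPM (log axis) of the 152 members below 1 CPM in every seedling library (red circles) and of the other 48 (blue squares), with 1 point per library. The red points are at 5702 and 3052 CPM in heated panicles and 207 and 17.99 CPM in normal panicles, and at most 9.36 CPM in any seedling library, and the blue points are lowest in normal panicles.

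The study's tables name or describe 21 members, 5 of the silent block and 16 of the block read in seedlings. These tables list 5048 of the gene models and were drawn largely from differences between DJ-WT and onac023 seedlings, so genes not expressed in seedlings are rarely in them. Of the silent block, LOC_Os02g55400, a plasma membrane proton pump of the ATPase family, averaged 25.4 CPM in heated panicles against 0.016 CPM in normal panicles. LOC_Os04g32680, of the Pollen Ole e I allergen and extensin family, had 133 and 49.5 CPM against 2.68 and 0.277 CPM. LOC_Os01g13440, described as similar to the grass pollen allergen Cyn d 23, had 18.8 and 9.67 CPM against no count in either normal library. LOC_Os05g30940, a vacuolar calcium binding protein, averaged 20.1 CPM against 0.137 CPM. LOC_Os10g08022, a fructose-bisphosphate aldolase of sugar metabolism, averaged 23.2 CPM against 0.294 CPM.

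Genes with pollen or anther in their description, a list added after the values were seen, were mostly lower in heated panicles. Of the 16, the only ones to pass the panicle conditions were the members LOC_Os04g32680 and LOC_Os01g13440, and 13 had a panicle log2 ratio below 0. Their summed level was 1283 and 2472 CPM in heated panicles against 3732 and 5480 CPM in normal panicles. The median panicle log2 ratio of the 16 was -1.10, against -0.20 over all 5048 described genes.

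The seedling limit excludes genes that heat raises in seedlings, and few of the heat shock genes that passed the panicle conditions met it. Of 53 chaperone genes in the tables, 28 passed the panicle conditions, 1 also met the seedling limit and none was a member. Of 11 heat shock factors, 6 passed the panicle conditions and none met the seedling limit. Of 19 LEA and dehydrin genes, 11 passed the panicle conditions and 2 were members. The member OsEm, also an LEA protein, is described in the tables as a small hydrophilic seed protein and is not counted in the list. The lists of calcium sensors (15 genes), protein kinases (243 genes) and cell wall proteins (58 genes) held 1, 3 and 1 members. The remaining 14 lists, among them the AP2/ERF, WRKY, MYB, bHLH, NAC and bZIP factors, transporters and transposon-related genes, held none. Over all 5048 described genes, 293 passed the panicle conditions, 44 of these also met the seedling limit and 21 were members.

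Members lay on all 12 chromosomes, as read from the identifiers, with between 9 members on chromosome 10 and 24 on chromosome 2. They made up 0.256% to 0.467% of the loci of a chromosome. In identifier order, 38 members (19%) stood within 5 loci of another member, in 14 runs, and 35 of the 38 were of the silent block. Of the 472 genes past the seedling limit, 81 (17.2%) stood in such runs among themselves. A larger set has more genes within 5 loci of each other by its size alone. The 2 shares are therefore not alike, and their difference was not tested. Neighbouring copies of a gene can share reads, and how the counting treated such reads is not given in the sources used here, so values within a run are uncertain.

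The longest run held 6 members among the 10 loci between LOC_Os06g45150 and LOC_Os06g45230. Its summed level was 169 and 102 CPM in heated panicles against 5.69 and 0.117 CPM in normal panicles, and no gene of it exceeded 0.698 CPM in a seedling library. The run of LOC_Os02g03480 to LOC_Os02g03520 was unbroken, with all 5 loci members, and summed to 238 and 139 CPM against 12.2 and 0.98 CPM. In it, LOC_Os02g03490 was at 85.7 and 49.5 CPM in heated panicles against 6.52 and 0.714 CPM in normal ones, and LOC_Os02g03510 at 56.2 and 29.4 CPM against 1.53 and 0.0746 CPM. In both runs the summed normal level was higher in replicate 1.

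Runs of 3 members began at LOC_Os03g01610, LOC_Os04g25150 and LOC_Os04g57260. The run at LOC_Os04g25150 summed to 210 and 133 CPM in heated panicles against 12.1 and 0.0746 CPM in normal panicles. That at LOC_Os03g01610 summed to 71.6 and 39.1 CPM against 0.483 and 0 CPM, and that at LOC_Os04g57260 to 192 and 104 CPM against 9.44 and 0.32 CPM. The pair of early light-induced protein genes was the only run whose members were all read in seedlings.

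In heated ZH11 seedlings, 19 of the 48 members read in seedlings were below 0.5 of their normal level (0.5 CPM added to each mean). The other 29 lay between that and the limit of 1.5 times. The rule used these same libraries, allowed falls and shut out larger rises, so this split is a description only. LOC_Os01g74450, the aquaporin, had 64.5, 148 and 378 CPM in heated seedlings against 1113, 1194 and 1267 CPM in normal seedlings. LOC_Os07g08160 had 5.73, 24.5 and 27.5 CPM in heated seedlings against 165, 188 and 320.4 CPM in normal ones. Both genes were raised in heated panicles and lowered in heated seedlings, in every library. LOC_Os08g39810, in contrast, had 88.3, 125 and 135 CPM in heated seedlings against 79.5, 85.0 and 85.4 CPM in normal ones.

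Under drought, which the rule did not use in any variety, a set of members was strongly raised in seedlings. In DJ seedlings, drought was compared with normal conditions by edgeR's quasi-likelihood test on all 24257 genes that passed the filter on low counts, and a gene was called where the p adjusted by Benjamini-Hochberg was below 0.05 with more than a 2-fold difference. The filter passed 58 members, and 142 had too few counts. Of the 200 members, 29 were called higher under drought (background 25.2% of the genes tested), 13 were called lower (background 29.1%), and 16 were tested and not called. Of the 29, 14 had fewer than 10 counts in each normal library and passed the filter through the drought libraries only, so the count among the tested members is not read against the background. At least 10 CPM on average under drought was reached by 12 of the 29 and at least 100 CPM by 9. The median log2 fold change of all genes tested was -0.14, and with upper-quartile scaling it was -0.36. Fitted fold changes here and below include TMM scaling between libraries, which the printed CPM do not. They therefore differ from ratios of the printed CPM, and some calls pass 2-fold only after this scaling.

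LOC_Os05g31020 had 952, 959.6 and 966.5 CPM in drought-treated DJ seedlings against 2.96, 3.04 and 3.5 CPM in normal ones. Its log2 fold change was 8.79 ± 0.16 (SE, adjusted p = 5.3e-09). LOC_Os03g19290 had 1073, 1089 and 1121 CPM under drought against 3.99, 4.79 and 5.48 CPM, a log2 fold change of 8.39 ± 0.20 (adjusted p = 8.51e-09). LOC_Os10g09240 had 496.7, 573 and 577 CPM under drought against 10.9, 12.2 and 13.5 CPM, a log2 fold change of 6.03 ± 0.16 (adjusted p = 1.46e-08). The groups of these genes were separated by more than an order of magnitude, and none of them has a name in the study's tables. In heated panicles they had 33.2, 122 and 98.8 CPM on average, against 2.41, 6.44 and 3.08 CPM in normal panicles.

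The LEA members were nearly absent from normal seedlings and high under drought. LOC_Os04g52110, a group 3 LEA protein, had 270.0, 298 and 404.7 CPM in drought-treated DJ seedlings against 0 to 0.0501 CPM in normal ones (at most 3 counts), with adjusted p = 1.89e-08. LOC_Os06g23350, an LEA protein of the D-34 type, had 248.5, 266 and 280.0 CPM under drought against 0 to 0.0953 CPM (at most 4 counts), with adjusted p = 1.97e-08. OsEm (LOC_Os05g28210, also called EMP1 and OsEm1), the LEA protein of the ripening embryo, had 28.0, 33.3 and 57.2 CPM under drought and no count in any normal library, with adjusted p = 1.76e-06. No fold is given for these 3 genes, since a fitted fold rests on so few normal counts. In panicles, LOC_Os04g52110 had 11.5 and 9.58 CPM under heat against 0.294 and 0.341 CPM, LOC_Os06g23350 had 13.1 and 7.87 CPM against 0.147 and 0.17 CPM, and OsEm had 9.71 and 12.1 CPM against 0 and 0.0426 CPM. OsEm was 1 of the 2 members that did not have their higher value in heated replicate 1. Of the 19 LEA and dehydrin genes in the tables, 18 were tested in DJ seedlings and all 18 were called higher under drought. Over all described genes, 4339 were tested there and 1664 were called higher.

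Further members, most of them annotated, rose under drought in DJ seedlings. LOC_Os09g27950, a galactosyltransferase, had 179, 183.5 and 198 CPM under drought against 8.65, 15.4 and 17.6 CPM, a log2 fold change of 4.30 ± 0.24 (adjusted p = 3.52e-07). LOC_Os04g51796, described as related to a DNA repair ATPase, had 162, 175 and 189.6 CPM under drought against 0 to 0.11 CPM (at most 5 counts), with adjusted p = 2.35e-08. OsCIPK30 (LOC_Os01g55440), a kinase of the family that calcineurin B-like calcium sensors switch on, had 2.52, 3.33 and 5.1 CPM under drought against 0 to 0.0441 CPM, with adjusted p = 3.58e-06. The EF hand gene LOC_Os08g44660, whose motif binds calcium, had 2.01, 2.04 and 2.4 CPM under drought and no count in normal libraries, with adjusted p = 5.17e-06. LOC_Os05g51230, a phosphatidylinositol 3- and 4-kinase, had 1.55, 1.58 and 1.89 CPM under drought against 0.397, 0.451 and 0.477 CPM, with a log2 fold change of 2.46 ± 0.29 (adjusted p = 4.6e-05). LOC_Os06g02040, which has no annotation in the study's tables, had 34.3, 41.6 and 51.3 CPM under drought against 0 to 0.286 CPM (at most 12 counts), with adjusted p = 3.16e-07. Of the annotated genes, LOC_Os03g12180, a protein with an MA3 domain, averaged 3.63 CPM under drought against 0.0708 CPM. The plasma membrane ATPase gene LOC_Os06g08310 averaged 1.29 CPM under drought against 0.72 CPM, and the monocopper oxidase gene LOC_Os01g60080 averaged 0.468 CPM against 0.112 CPM, both called higher. The mean CPM of LOC_Os06g08310 differed less than 2-fold, so its call rests on TMM scaling.

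**Figure D4:**
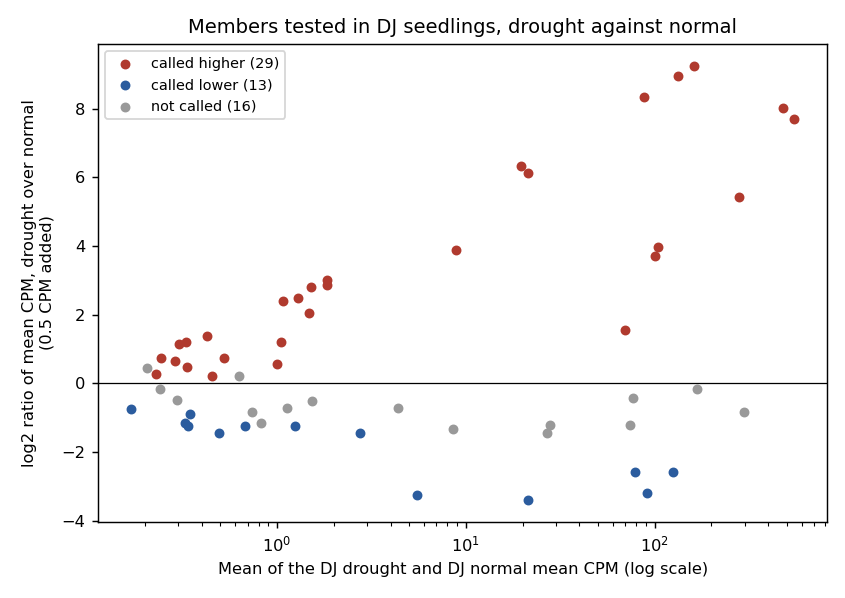
Log2 ratio of mean CPM in DJ seedlings, drought over normal with 0.5 CPM added, against the mean of the 2 group means (log axis) for the 58 members tested. The 29 members called higher (red) include 9 that average at least 100 CPM under drought, and the 13 called lower (blue) include LOC_Os08g39810 and LOC_Os07g08160.

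Among the 13 members lower under drought in DJ seedlings, 5 averaged at least 10 CPM in normal seedlings. LOC_Os08g39810 had 22.0, 22.4 and 23.1 CPM under drought against 126, 132 and 150 CPM in normal seedlings, a log2 fold change of -2.04 ± 0.10 (adjusted p = 2.05e-07). LOC_Os09g28390 had 2.66, 2.87 and 4.32 CPM under drought against 30.4, 38.7 and 49.5 CPM, a log2 fold change of -3.05 ± 0.24 (adjusted p = 3.19e-06). LOC_Os07g08160, the early light-induced protein, had 20.1, 32.8 and 53.4 CPM under drought against 202, 215 and 225 CPM, a log2 fold change of -2.04 ± 0.31 (adjusted p = 0.000229). RSOsPR10 (LOC_Os12g36830, also called OsPBZ14), a pathogenesis-related protein of the Bet v I family, had 14.9, 18.2 and 19.98 CPM under drought against 120.4, 169 and 201.5 CPM, a log2 fold change of -2.66 ± 0.18 (adjusted p = 1.38e-06). In all of these genes the groups did not overlap. The neighbour LOC_Os07g08150 had 20.1, 44.7 and 68.4 CPM under drought against 82.5, 108 and 120 CPM in normal seedlings and was not called.

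ZH11 seedlings under drought share their normal libraries with the choice of members, so their values are given without a test. Of the 48 members read in seedlings, 14 had more than 2 times and 14 less than 0.5 of their normal mean in drought-treated ZH11 seedlings (0.5 CPM added). The share of all genes passing these cuts was not counted, so these counts are not read as a result about the members. Of the 29 members called higher in DJ, all drought libraries of ZH11 lay above all normal ones for 18 and below them for 1. For the other 10, the ZH11 groups overlapped. The share of all genes separated in this way was not counted either, so the 18 are not read as a repeat of the DJ result. LOC_Os05g31020 had 369, 469 and 500.6 CPM in drought-treated ZH11 seedlings against 2.72, 3.81 and 4.15 CPM in normal ones. OsEm had 3.36, 10.9 and 18.9 CPM under drought against 0 to 0.0341 CPM. RSOsPR10 had 118, 203 and 612 CPM under drought against 25.0, 40.3 and 106 CPM, the opposite direction to DJ.

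Heat and drought were set against each other in the onac023 and DJ-WT seedlings, since neither line had a normal group. In onac023, edgeR's test called 27 members lower under heat than under drought (background 24.8%) and 13 higher (background 25.5%), with 55 members tested and 145 too low to test. Of the 27, 13 had fewer than 10 counts in each heat library. In DJ-WT, 24 members were lower under heat (background 20.6%) and 11 higher (background 18.2%), with 51 tested and 149 too low to test. Of the 24, 10 had fewer than 10 counts in each heat library, and among genes averaging 1 log2 CPM or more the 24 became 12 and the 27 of onac023 became 13. These counts too are not read against the background. Between DJ drought and onac023, which share no library, 23 members were called both higher under drought in DJ (79.3% of 29) and lower under heat than under drought in onac023 (85.2% of 27). Over all genes tested, 3650 were called in both of these directions, 59.7% of those higher under drought in DJ and 62.5% of those lower under heat in onac023. Since many of the members called had few counts in the lower group, these shares are not read against each other.

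The genes with the smallest p in onac023 were the drought genes named above. LOC_Os06g23350 had 0 to 0.0315 CPM in heated onac023 seedlings (at most 2 counts) against 292, 313 and 373 CPM under drought (adjusted p = 5.65e-09). LOC_Os05g31020 had 2.45, 2.7 and 3.08 CPM under heat against 918, 927.5 and 930.1 CPM under drought, a log2 fold change of -7.76 ± 0.19 (adjusted p = 5.3e-09). LOC_Os04g51796 had 0.0351 to 0.142 CPM under heat against 180.0, 185 and 185.5 CPM under drought (adjusted p = 5.3e-09). In DJ-WT, LOC_Os04g52110 had 0.0714 to 0.238 CPM under heat against 175, 185.5 and 246 CPM under drought (adjusted p = 8.65e-06), and LOC_Os10g09240 had 17.3, 18.5 and 18.9 CPM against 364, 404.5 and 444 CPM, a log2 fold change of -3.84 ± 0.14 (adjusted p = 8.89e-06). LOC_Os06g23350 was at 0 to 0.11 CPM under heat in DJ-WT against 136.5, 152 and 160.3 CPM under drought (adjusted p = 1e-05).

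Of the 13 members higher under heat than under drought in onac023, 4 were also called lower under drought in DJ (30.8% of each set of 13), and over all genes tested these shares were 60.4% of the genes higher in onac023 and 51.3% of those lower in DJ. LOC_Os04g49650 was called lower in both comparisons. LOC_Os08g39810 had 391, 502 and 533 CPM in heated onac023 seedlings against 20.4, 21.4 and 22.0 CPM under drought, a log2 fold change of 5.12 ± 0.20 (adjusted p = 2.59e-08). In DJ-WT it had 211, 279 and 295.5 CPM under heat against 23.2, 26.7 and 27.6 CPM, a log2 fold change of 3.97 ± 0.18 (adjusted p = 1.08e-05). LOC_Os09g28390 had 67.8, 71.9 and 82.2 CPM under heat against 2.42, 3.04 and 3.93 CPM under drought in onac023 (log2 fold change 5.19 ± 0.18, adjusted p = 1.44e-08). In DJ-WT its values were 43.7, 48.2 and 65.6 CPM against 4.79, 5.19 and 7.86 CPM (3.78 ± 0.28, adjusted p = 5.76e-05). LOC_Os06g47910 had 13.8, 14.9 and 16.8 CPM under heat against 0.471 to 0.502 CPM under drought in onac023 (5.57 ± 0.17, adjusted p = 1.04e-08). LOC_Os05g38570 had 151, 219 and 225 CPM under heat against 31.5, 36.0 and 38.2 CPM under drought in DJ-WT (3.13 ± 0.18, adjusted p = 2.33e-05). Without a normal group, a rise under heat and a fall under drought cannot be told apart in these lines.

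**Figure D5:**
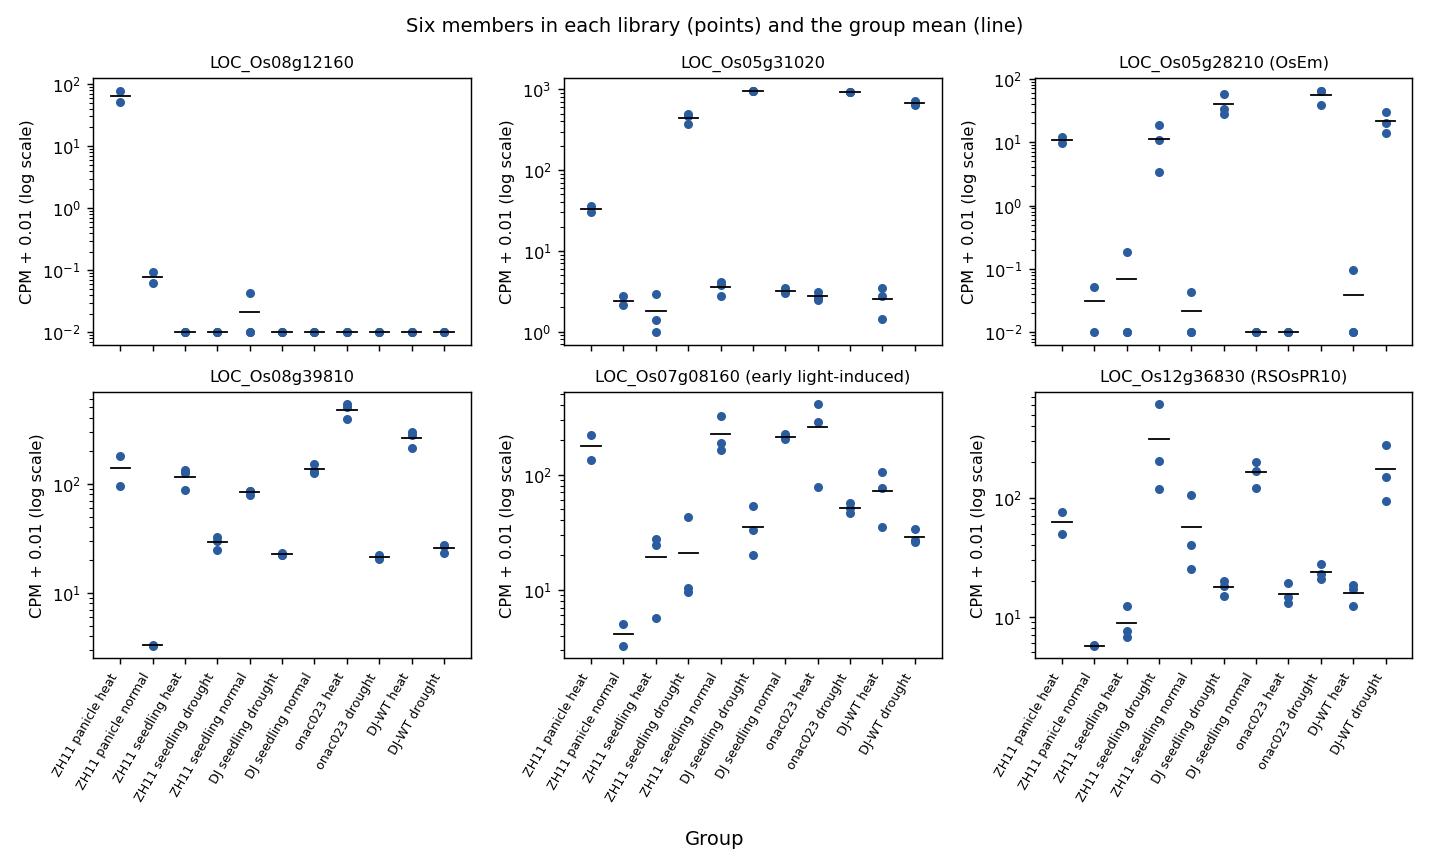
CPM with 0.01 added (log axis) of 6 members in each library (points), with the group mean as a line. LOC_Os08g12160 is read in panicles and, at 0.0339 CPM, in 1 seedling library, LOC_Os05g31020 and OsEm are highest under drought in every kind of seedling, LOC_Os08g39810 is lowest in normal panicles and low under drought, and RSOsPR10 moves opposite ways under drought in ZH11 and DJ.

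Between the lines under drought, the members' differences depended on the control libraries. Against DJ-WT, edgeR's test called 16 members higher (background 7.21%) and 3 lower (background 18.1%) in onac023, with 57 tested. When drought libraries of DJ seedlings stood in for DJ-WT, it called 0 higher (background 0.923%) and 0 lower (background 0.357%) of 57 tested, and 12 of these had an unadjusted p under 0.05. DESeq2, run against DJ-WT only, called 18 higher and 2 lower. LOC_Os06g23350 had 292, 313 and 373 CPM in drought-treated onac023 seedlings against 136.5, 152 and 160.3 CPM in DJ-WT and 248.5, 266 and 280.0 CPM in DJ seedlings. Its log2 fold change was 1.495 ± 0.11 over DJ-WT (adjusted p = 2.89e-05) and 0.40 over DJ seedlings. LOC_Os04g51796 had 1.27 ± 0.07 over DJ-WT (adjusted p = 1.89e-05) and 0.17 over DJ seedlings, and LOC_Os09g27950 1.09 ± 0.09 (adjusted p = 4.03e-05) and 0.28. For LOC_Os04g51796 and LOC_Os09g27950, mean CPM was less than 2-fold above DJ-WT, so these calls rest on TMM scaling.

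For the 3 members called lower in drought-treated onac023, the values of DJ seedlings were nearer to onac023 than to DJ-WT. RSOsPR10 had 20.5, 22.8 and 27.7 CPM in onac023 against 94.8, 149 and 278 CPM in DJ-WT (log2 fold change -2.51 ± 0.36, adjusted p = 0.000549), while DJ seedlings had 14.9, 18.2 and 19.98 CPM. LOC_Os05g38570 had 12.01, 12.07 and 13.5 CPM in onac023 against 31.5, 36.0 and 38.2 CPM in DJ-WT (-1.12 ± 0.10, adjusted p = 6.72e-05) and 12.1, 14.7 and 16 CPM in DJ seedlings. The kinase gene LOC_Os01g10890 had 3.22, 3.33 and 3.37 CPM against 7.75, 8.24 and 10.3 CPM in DJ-WT (-1.03 ± 0.16, adjusted p = 0.000861) and 4.07, 4.35 and 5.6 CPM in DJ seedlings. Its call was lost with DESeq2 (-0.99), with RLE scaling (-0.99), with all line libraries in 1 fit (-1.04) and without DJ-WT drought replicate 1 (-0.89). What the ZH11 transcripts in the DJ-WT libraries contribute to these differences was not tested.

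Under heat, 3 members were called higher in onac023 than in DJ-WT (background 2.24%) and none lower (background 9.04%; 11 of 39 members tested had an unadjusted p under 0.05, and DESeq2 called 3 higher and 0 lower). LOC_Os08g39810 had 391, 502 and 533 CPM in heated onac023 seedlings against 211, 279 and 295.5 CPM in DJ-WT (log2 fold change 1.25 ± 0.22, adjusted p = 0.00912). Its mean CPM was less than 2-fold above DJ-WT, so this call rests on TMM scaling. For the early light-induced protein genes LOC_Os07g08150 and LOC_Os07g08160 the groups overlapped, with 50.8, 121 and 176 CPM against 30.3, 43.9 and 60.7 CPM, and 77.7, 286 and 408 CPM against 35.2, 76.4 and 106 CPM. The count of 3 was 1 without DJ-WT heat replicate 3 or without onac023 heat replicate 1, and 6 without DJ-WT heat replicate 2.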

How the data were processed

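The 19 stress libraries and 12 line libraries of the RNA-seq experiments were used, and the ChIP-seq samples were not analysed here. The authors deposited estimated counts per gene model as whole numbers, with HISAT2 and StringTie named in their processing notes and STAR in the paper. The counting step is not given in the sources used here. In 10 libraries the most frequent low value was 4 and in 21 it was 2. What a read pair is worth in counts was not tested, and floors of 3 counts would be too low if it is worth several. No column was left unused (0 columns).

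The tests assumed counts and were run on the estimated counts as deposited, with edgeR 4.0.16 in R 4.3.3 (TMM scaling, filterByExpr, quasi-likelihood test, Benjamini-Hochberg adjustment), each fit holding the 2 groups it compares. SEs were derived from each log2 fold change and its F statistic. The main edgeR fit of each comparison was run on simulated counts. These had the same spread setting for all genes and as many genes raised as lowered, so they do not test TMM scaling under unbalanced change. The alternatives and the interaction were not run on simulated counts. Tables were summarised in Python 3.11.15. Same-numbered libraries deviated together in the heat comparison of the lines only (correlations 0.384, 0.33 and 0.114). In the other comparisons the correlations ran between -0.113 and 0.0857.

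Members and gene lists were chosen with earlier results of these data known. Named genes are the 10 members with the largest panicle ratio, the 5 with the highest heated panicle mean, those with a name or in a gene list, up to 3 per direction of each comparison with the smallest p and groups that do not overlap, and the genes at the edges of the rule. Other genes were named after their values were seen. Names come from the paper's tables. The RefSeq gene table matched 0 members, so no coordinates, promoters or proteins are given. Alternatives were DESeq2 1.42.0, RLE and upper-quartile scaling, 2 other filters, the replicate block, 1 fit of all libraries of a table, each library left out, other thresholds of the rule and members without the limit of 200. Counting only the members read in seedlings, and the interaction of line and stress, were added after the data were seen. Floors cover counting error only.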

Additional observations from a re-analysis of the deposited data

Results flagged for a closer look

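The difference between heat and drought was itself compared between onac023 and DJ-WT with an interaction term in edgeR over the 12 line libraries. It was called for 12 of 64 members tested, against 23.6% of all 25773 genes tested, and 7 of the 12 are named in the report. The interaction (onac023 minus DJ-WT, log2) was 1.22 ± 0.24 for LOC_Os08g39810 (adjusted p = 0.00229), 2.00 ± 0.26 for LOC_Os05g38570 (adjusted p = 0.000212) and 1.49 ± 0.31 for LOC_Os09g28390 (adjusted p = 0.00389). It was 2.93 ± 0.46 for RSOsPR10 (LOC_Os12g36830, adjusted p = 0.000625), -2.15 ± 0.64 for LOC_Os08g44660 (adjusted p = 0.0222) and -1.90 ± 0.53 for LOC_Os04g51796 (adjusted p = 0.0168). It was -3.12 ± 1.12 for LOC_Os05g30940 (adjusted p = 0.0488), a value that rests on at most 5 counts per library in heated onac023 seedlings. Few counts also underlie the values of LOC_Os08g44660 and LOC_Os04g51796. They had at most 6 and 9 counts per library in heated onac023 seedlings, and at most 10 and 15 in heated DJ-WT seedlings. What the ZH11 transcripts in the DJ-WT libraries contribute was not tested.

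RSOsPR10 also moved opposite ways under drought in the 2 varieties. The log2 ratio of means with 0.5 CPM added, drought over normal, was 2.44 in ZH11 and -3.18 in DJ, with every drought library above every normal one in ZH11 and below in DJ. This difference was not tested.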

How the results depend on the processing

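Of 331 values of the 25 named gene comparisons under the alternatives, 321 kept direction and call, 9 kept direction only and 1 reversed. The reversal was RSOsPR10 between the lines under drought, at 0.53 when drought libraries of DJ seedlings stood in for DJ-WT. LOC_Os01g10890 (-1.03) lost its call there with DESeq2 (-0.99), RLE scaling (-0.99), all line libraries in 1 fit (-1.04), without DJ-WT drought replicate 1 (-0.89) and with DJ seedlings (-0.39), and the 4 other named genes of that comparison lost theirs with DJ seedlings only. Testing fewer genes, those averaging 1 log2 CPM or more, 12 members were higher and 6 lower in DJ drought, 13 and 12 were lower under heat than under drought in onac023 and DJ-WT, and 10 were higher in onac023 under drought. Without the limit of 200 (316 genes) the counts higher and lower were 58 and 27 in DJ drought, 32 and 52 in onac023, 26 and 48 in DJ-WT, 33 and 14 between the lines under drought, and 7 and 2 under heat. The counts between the lines under drought were 0 and 0 when DJ seedlings stood in for DJ-WT. With no filter on low counts, 5 were lower between the lines under drought, and with all line libraries in 1 fit, 6 were higher under heat. The causes were not tested.

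Leaving out 1 library gave 28 to 32 higher and 12 to 14 lower in DJ drought, 12 to 17 and 26 to 31 in onac023, 10 to 13 and 23 to 27 in DJ-WT, 14 to 18 and 3 to 4 between the lines under drought, and 1 to 6 and 0 under heat. The replicate block gave 28 and 13 in DJ drought, 13 and 26 in onac023, 11 and 22 in DJ-WT, 16 and 3 between the lines under drought, and 3 and 0 under heat, so it moved no count by more than 1.5 times. The number of genes passing the rule was 551 with a 2-fold panicle threshold, 136 with a minimum of 10 CPM, 206 with a seedling limit of 1, and 315 to 522 with 1 library left out.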
